A study of Mus musculus with 196 samples.

Results

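Collagens are the main structural proteins of the extracellular matrix, and their genes are examined here in cultured mouse germ cells sorted from a mixed culture. Genes were taken by name, as every symbol made of Col, a number, a and a number, which gave 43 of the 25706 endogenous genes in the table. The question was which of them varied between replicate libraries and which varied with treatment.

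The cells, called PGCLCs, resemble primordial germ cells and are derived in culture from embryonic stem cells through an epiblast-like state. RNA 3' ends were sequenced in 191 PGCLC libraries of 7 lines or clones, and in 3 libraries of germ cells from embryos. Cells sorted for the Prdm1 reporter at day 0 were grown on m220 feeders, which carry membrane-bound SCF, and cells positive for the Dppa3 reporter were sorted at days 3 to 9.

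All PGCLC lines carried Prdm1-mVenus and Dppa3-ECFP transgenes on a strain background of 129S1 and C57BL/6. H18 (27 libraries) carried no other change, Zko_E5 and Zko_G10 (26 each) were Zglp1-/-, and Sko_B6 and Sko_F6 (16 each) were Stra8-/-. OE_A2 (64) carried piggyBac transgenes for rtTA under EF1a and for Zglp1 under tetO, so that doxycycline (Dox) turns Zglp1 on, and OESko_A11 (16) carried both transgenes and was Stra8-/-. ZGLP1 and STRA8 are regulators of the female germ cell fate and of meiotic entry. Each name stands for 1 clone, so an effect of a genotype cannot be told apart from an effect of the clone where 1 clone stands for it. Media were control, BMP2, retinoic acid (RA), BMP2 with RA (B2RA), Dox, Dox with RA (DoxRA), BMS, BMSDox, SerumMinus, SerumMinusWIN and SerumMinusWINDox. The labels explain BMS, WIN and SerumMinus no further. Most groups of line, medium and day held 2 libraries, and 93 did. Embryonic cells were PGCs at E9.5 (Dppa3-EGFP) and oocytes at E14.5 and E15.5 (Ddx4-RFP) from matings of ICR mothers, with 1 library each.

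Libraries held 877040 to 5196593 reads, and levels are in RPM, reads scaled to the library's total, where 1 read was worth 0.192 to 1.14 RPM. The labels do not say whether replicates were separate cultures, so p-values measure the spread between libraries, which may be technical. The mCherry transgene row reached 305 to 17416 RPM in the 40 transgenic libraries with Dox and 43.5 to 557 RPM in the 40 without it. In the Zglp1 knockout clones 3' reads of Zglp1 still reached 55.8 RPM and in the Stra8 knockout lines those of Stra8 reached 688 RPM, so 3' reads do not check these deletions. A few PGCLC libraries, 3 in all, stood apart, because Col18a1 was not their highest collagen: H18 B2RA day 9 replicate 1, OE_A2 DoxRA day 9 replicate 2 and Sko_B6 B2RA day 9 replicate 2.

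A collagen molecule is a triple helix of 3 chains. Fibrillar collagens (types I, II, III, V) form the fibres that fibroblasts and other stromal cells lay down. Type IV collagen forms the network of basement membranes and is made in large amounts by parietal endoderm, type VI forms beaded filaments, and type XVIII sits in basement membranes and carries the endostatin domain. Collagen mRNA in a sorted germ cell library can come from the germ cells, or from other cells that passed the gate. In RNA of bulk cells, a change in the number of cells of one kind and a change of RNA per cell cannot be told apart.

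Type IV genes lie in head-to-head pairs. In GENCODE on mm10, Col4a2 starts at chr8:11312805 on the plus strand and Col4a1 at chr8:11312826 on the minus strand, so that their first exons overlap by 22 bases and the genes run apart. The window chr8:11312801-11312830 is shown, from RefSeq on GRCm38.p6, because a pair of genes that followed each other in these data share it. The capitals mark the bases from one start to the other:
Col4a1 and Col4a2, plus strand: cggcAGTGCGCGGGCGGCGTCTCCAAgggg
Col4a4 and Col4a3 lie 72 bases apart on chromosome 1 and Col4a6 and Col4a5 lie 1309 bases apart on chromosome X, both head to head.

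Upstream sequences are shown for Col3a1, whose replicates were far apart in more pairs than those of any other collagen, and for the type IV gene that rose most with treatment, Col4a5. Capitals mark TATAAA in Col3a1 (117 bases before the start) and CCAAT in Col4a5 (196 bases before RefSeq's start, 162 before GENCODE's), and both are on the plus strand of GRCm38.p6. The Col3a1 run covers the 250 bases before the start, chr1:45311288-45311537, and the Col4a5 run covers chrX:141475169-141475384, which stops 35 bases before RefSeq's start and 1 base before that of GENCODE:
Col3a1: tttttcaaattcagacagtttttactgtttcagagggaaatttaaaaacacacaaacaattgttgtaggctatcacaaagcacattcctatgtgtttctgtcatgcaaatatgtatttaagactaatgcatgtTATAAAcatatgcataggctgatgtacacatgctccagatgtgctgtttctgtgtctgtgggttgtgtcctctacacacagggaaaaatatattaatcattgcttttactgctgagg
Col4a5: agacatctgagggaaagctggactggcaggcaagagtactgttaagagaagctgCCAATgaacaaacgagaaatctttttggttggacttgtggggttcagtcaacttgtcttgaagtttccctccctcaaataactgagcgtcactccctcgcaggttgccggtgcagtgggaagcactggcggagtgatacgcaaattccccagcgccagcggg
The letters of 4 motifs, each given with its count, were searched on both strands of the 250 bases upstream of 32851 promoters, among them those of 35 collagen genes. TATAAA was in 5 of the 35 and in 12.37% of all, CCAAT in 13 and 33.85%, GATAA in 6 and 22.58%, and AGGTCA in 8 and 14.02%. A collagen gene was counted if any of its promoters held the motif, whereas the shares of all count single promoters, so the units differ. A match describes letters and is no evidence of binding.

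One gene supplied most of the collagen mRNA. Col18a1 (type XVIII) was the highest collagen in 188 of 191 PGCLC libraries, at 42.2 to 679 RPM with a median of 409 RPM. It made up a median of 68.8% of summed collagen RPM, with a range of 6.81% to 89.6%. The sum over all 43 genes was 173 to 1734 RPM with a median of 568 RPM.

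Of the 43 genes, 21 reached 10 RPM in at least 2 PGCLC libraries: 7 of 11 fibrillar, 3 of 6 basement membrane, 3 of 6 beaded filament, 5 of 9 fibril-associated, 2 of 4 transmembrane, 1 of 2 multiplexin and none of 5 other members. The other 22 never passed, and the highest value among them was 18.3 RPM of Col12a1, in Zko_E5 B2RA day 9 replicate 2. A comparison tested a gene when at least 2 of its libraries reached 10 RPM, so a gene can have entered through the group where it was high. Every one of the 43 genes had a read in some PGCLC library.

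The replicates of 6 genes were often far apart: the fibrillar genes Col1a1 and Col1a2 (the chains of type I), Col3a1 (type III) and Col5a2 (type V), and the type VI genes Col6a1 and Col6a2. A pair of replicates was counted as apart where the higher library had at least 10 RPM and at least 4 times the lower. This held for 19.2% of the pairs with 10 RPM of these 6 genes (59 of 307 gene and pair combinations), against a background of 0.991% over all genes (8253 of 833008). Over all 43 collagens it held for 82 of 674 combinations (12.2%). The 6 genes were named for this spread, so their share is a description. The higher library of a pair was also the one with the higher stroma level in 58 of the 59. The 59 combinations came from 30 replicate pairs, and genes of a pair share its stroma level, so they are not independent. Stroma level is the mean log2 level of 28 markers of fibroblasts and feeders that hold no collagen. These 28 markers were chosen with earlier results known.

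Col3a1 was 4-fold apart in 13 of 85 pairs, and the stroma markers went the same way in 13. Col1a2 was apart in 10 of 77, Col5a2 in 12 of 43, Col6a1 in 11 of 21, and Col1a1 in 6 of 54, each with the stroma markers going the same way every time. Col6a2 was apart in 7 of 27, and the markers went with it in 6. The 6 genes also moved with each other: Col3a1 went the same way in all 10 pairs where Col1a2 was apart and in all 12 where Col5a2 was, and Col6a2 did so in 10 of the 11 of Col6a1.

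**Figure D1:**
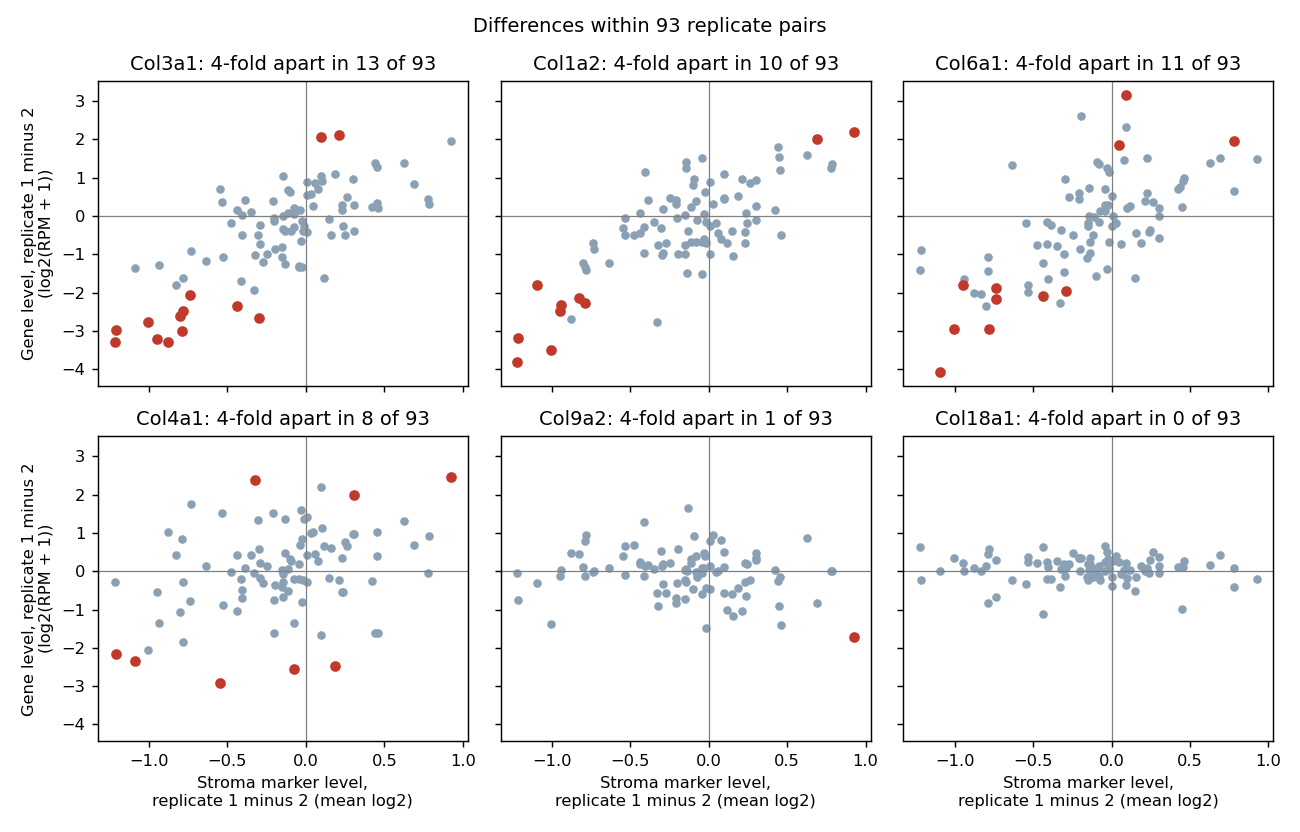
Each point is 1 of 93 pairs of replicate libraries. The x axis is the difference between replicate 1 and 2 in the mean log2 level of 28 stroma markers, the y axis is the difference of the gene on the log2(RPM + 1) scale, and red points are pairs that differed at least 4-fold with 10 RPM or more in the higher library. Red points of Col3a1 (13), Col1a2 (10) and Col6a1 (11) lie in the lower left and upper right, those of Col4a1 (8) lie in all 4 corners, and Col18a1 has none.

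The size of these gaps is shown by single pairs. In OE_A2 DoxRA at day 9, Col3a1 was 26.0 RPM in replicate 1 and 182 RPM in replicate 2, and Col1a2 was 8.09 and 103 RPM. The sum of 8 defining stroma markers (Postn, Lum, Dcn, Thy1, Twist1, Prrx1, Fbn1, Pdgfrb), of which decorin (Dcn) is the most abundant, was 20.5 and 170 RPM there. In OE_A2 control at day 5, Col3a1 was 8.15 and 89.5 RPM beside a marker sum of 2.72 and 70.3 RPM. In Sko_B6 control at day 9, Col3a1 was 166 and 37.8 RPM beside a marker sum of 72.4 and 21.9 RPM. In each of these pairs the library with more Col3a1 held more stroma marker RNA. What part stroma cells had in these values was not tested.

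Before the cells had been on feeders, these genes were nearly silent. At day 0, Col3a1 was 0 to 0.847 RPM in 5 of 6 libraries and 12.0 RPM in OE_A2 replicate 2, and Col1a2 was 0 to 5.41 RPM. The 8 defining markers summed to 1.14 to 16.2 RPM, with a median of 5.16 RPM. All 28 stroma markers, in contrast, summed to 779 to 1031 RPM at day 0, with a median of 992 RPM. Their median sum was 731 RPM at day 3.5 and 973 RPM at day 9. At day 3.5 all 8 H18 libraries had 19.6 to 49.3 RPM of Col3a1, and the 8 defining markers summed to 19.1 to 58.9 RPM. Col3a1 then had a median of 31.8 RPM at day 4 and 58.5 RPM at day 9, and Col1a2 went from a median of 11.1 to 48.0 RPM. Day 0 cells were sorted by another reporter, so day and gate cannot be told apart.

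Col18a1 stood at the other end. Its replicates were never 4-fold apart in 93 pairs, and its replicate SD of 0.23 on the log2(RPM + 1) scale lay at percentile 12.4 of all genes, whose median was 0.38. It was already 229 to 285 RPM in all 6 libraries of day 0, when the fibrillar genes were near 0. Replicate SD was 0.95 for Col6a1, 0.91 for Col3a1, 0.89 for Col5a2, 0.87 for Col1a2, 0.82 for Col6a2 and 0.80 for Col1a1, all between percentiles 99.2 and 99.7. The SD between treatments within line and day, computed as a variance component, was 0.62 for Col3a1 and 0.08 to 0.43 for the other 5, against a median of 0.30 over all genes.

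**Figure D2:**
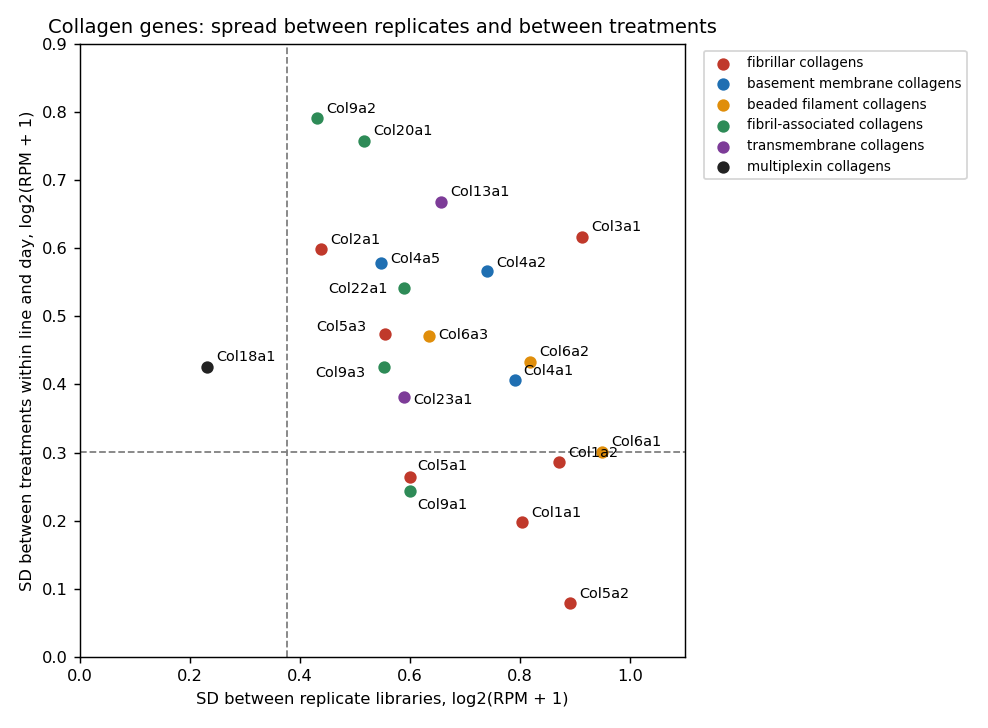
Points are the 21 collagen genes that reached 10 RPM in 2 PGCLC libraries, coloured by class. The x axis is the SD between replicate libraries and the y axis the SD between treatments within line and day, both on the log2(RPM + 1) scale, and dashed lines mark the medians of all genes (0.38 and 0.30). Col18a1 alone lies left of the replicate median, Col9a2 and Col20a1 are highest on the treatment axis, and Col6a1, Col3a1, Col5a2 and Col1a2 lie furthest right.

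Treatment was tested across all genes in 1 limma model. A joint F test over 10 treatment comparisons at day 9 called 11 of 18 tested collagens, against a background of 81.6% of all genes. Called were Col18a1, Col20a1, Col4a5, Col13a1, Col2a1, Col22a1, Col6a3, Col5a3, Col9a2, Col6a2 and Col4a1. Not called were Col3a1 (adjusted p = 0.0522), Col5a2, Col5a1, Col1a2, Col4a2, Col6a1 and Col1a1. Of the 6 genes that varied between replicates, 5 were not called, and Col6a2 (adjusted p = 0.0151) was. The F test sets treatment changes against the spread between replicates. The 6 were named for a wide spread, which itself makes a call less likely.

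The genes called in single comparisons at day 9 needed an adjusted p under 0.05 and a rise or fall by 1 or more on the log2(RPM + 1) scale, which understates the change of low genes. Changes carry their SE. In 8 of the 17 comparisons the median of all genes itself moved by over 0.1, between -0.13 (BMS) and 0.23 (BMSDox and Stra8 knockout B2RA), and TMM factors brought it to between -0.07 and 0.06.

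Col18a1 fell with Dox and with DoxRA in OE_A2. No line without the Zglp1 transgene was given Dox, so effects of Dox and of Zglp1 cannot be told apart. In OE_A2 at day 9 Col18a1 was 300.5 and 289 RPM in control medium, 133 and 131 RPM with Dox, and 54.0 and 42.2 RPM with DoxRA. The libraries of the 3 groups do not overlap. It fell by 1.15 ± 0.23 with Dox (adjusted p = 3.26e-05), by 2.60 ± 0.23 with DoxRA (adjusted p = 2.76e-18) and by 1.45 ± 0.23 from Dox to DoxRA (adjusted p = 2.73e-07). Of 5 tested collagens it was the 1 called with Dox, against a background of 22.8%, and DoxRA called 5 of 7 against 48.2%. Without DoxRA replicate 2 DoxRA called 2 collagens against control and 1 against Dox, and without control replicate 1 it called 3. In SerumMinusWINDox it was 125 and 95.0 RPM, beside 134 and 239 RPM in SerumMinusWIN, which did not pass.

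Col18a1 was also called lower with DoxRA at days 5 and 7, but not at day 4. With Dox alone, and from Dox to DoxRA, it was tested and not called at days 4, 5 and 7. With DoxRA it was 172 and 191 RPM at day 5, beside 470 and 305 RPM in control medium (change -1.06 ± 0.23, adjusted p = 0.000128; 2 of 3 tested collagens were called, background 24.3%). At day 7 it was 50.8 and 111 RPM, beside 245 and 287 RPM (change -1.80 ± 0.23, adjusted p = 6.23e-11; 5 of 6 called, background 39.3%). At days 4, 5 and 7 the labels give the control libraries of OE_A2 another extraction protocol than its Dox and DoxRA libraries, except 1 DoxRA library of day 7. Treatment and extraction cannot be told apart there, whereas all day 9 libraries have the same protocol.

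The change of Col18a1 with DoxRA differed between the transgenic clones. OESko_A11, which lacks Stra8, had 413 and 361 RPM of Col18a1 in control medium at day 9 and 357 and 279 RPM with DoxRA, a change of -0.29 that did not pass. The difference between the DoxRA changes of OESko_A11 and OE_A2 was itself tested and was 2.31 ± 0.32 (adjusted p = 2.59e-08). Of 13 tested collagens, 3 were called in this difference, against a background of 20%, and all were higher in OESko_A11: Col18a1, Col2a1 (2.95 ± 0.64) and Col6a3 (2.38 ± 0.89, adjusted p = 0.0405). Col6a3, a type VI chain, was 6.46 and 9.33 RPM in OESko_A11 control and 10 and 12.1 RPM with DoxRA, beside 2.41 and 5.75 RPM and then 0.578 and 0 RPM in OE_A2. Genotype and clone cannot be told apart here.

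Col4a5, a chain of the type IV network that basement membranes of kidney and other tissues use, rose with DoxRA. It was 3.10 and 3.23 RPM in OE_A2 control medium, 7.31 and 6.67 RPM with Dox, and 32.9 and 60.6 RPM with DoxRA. The change was 3.46 ± 0.55 against control (adjusted p = 5.25e-08) and 2.52 ± 0.55 against Dox (adjusted p = 0.000244). The comparison with Dox called 3 of 8 tested collagens against a background of 14.9%. Only the DoxRA libraries had 10 RPM, so Col4a5 could be tested only where it was high. Without either DoxRA library of day 9 it was not tested. At day 7 it had 10.5 and 10.1 RPM with DoxRA (change 1.26 ± 0.55, adjusted p = 0.0453), where the extraction protocol differed in part. Its head-to-head partner Col4a6 never went above 2.80 RPM in any PGCLC library and was not tested.

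Col20a1, a fibril-associated collagen, was higher in 3 comparisons with Dox at day 9. It was low in the media without Dox, so it could be tested only where it was high with Dox. It was 2.41 and 3.23 RPM in OE_A2 control medium and 19.9 and 26.3 RPM with DoxRA (change 2.65 ± 0.53, adjusted p = 7.23e-06). With SerumMinusWINDox it was 29.9 and 26.9 RPM, beside 0.762 and 1.60 RPM in SerumMinusWIN (change 3.78 ± 0.53, adjusted p = 4.94e-09; 2 of 8 collagens called, background 23.1%). In OESko_A11 it was 1.72 and 0.549 RPM in control medium and 11.4 and 10.7 RPM with DoxRA (change 2.55 ± 0.53, adjusted p = 7.31e-05). With Dox alone OE_A2 had 15.0 and 9.10 RPM, which left 1 library at 10 RPM, and BMSDox had 7.16 and 6.63 RPM, so these groups were not tested. Without either treated library, and in OESko_A11 with TMM factors, fewer than 2 libraries had 10 RPM and Col20a1 was not tested.

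Col2a1, the type II chain of cartilage, responded to DoxRA differently in the transgenic clones. In OE_A2 it was 18.6 and 18.7 RPM in control medium and 3.75 and 5.58 RPM with DoxRA, and fell by 1.81 ± 0.45 (adjusted p = 0.000313). In OESko_A11 it was 14.2 and 9.88 RPM in control medium and 34.3 and 21.8 RPM with DoxRA, and rose by 1.14 ± 0.45 (adjusted p = 0.0443). The difference of 2.95 between the clones was called under every alternative run, whereas the rise within OESko_A11 was lost with pseudocounts of 0.5 or 5, TMM factors (0.91, adjusted p = 0.117), the stroma covariate, edgeR and without 3 of the 4 libraries. The fall in OE_A2 could not be tested without either control library. Its falls from Dox to DoxRA (1.18) and in SerumMinusWINDox (1.19) were lost with pseudocounts of 0.5 or 5, in edgeR and with only the compared groups in the fit. At day 7 Col2a1 was lower with DoxRA than with Dox too, at 3.58 to 4.09 beside 12.3 to 13.2 RPM (change -1.51 ± 0.45, adjusted p = 0.0389). It was the 1 collagen called of 5 tested, against a background of 2.18%. At day 5 Col2a1 was higher with Dox than in control, at 10.1 to 16.1 beside 4.29 to 4.83 RPM (change 1.31 ± 0.45, adjusted p = 0.0299). The extraction protocol differed too at day 5, and in part at day 7.

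Col3a1 was called with DoxRA in OE_A2 at day 9. Leaving out DoxRA replicate 2 or control replicate 1 ended that call. All other alternatives kept it, the stroma covariate, TMM factors and edgeR among them. The control libraries had 7.57 and 16.5 RPM and the DoxRA libraries 26.0 and 182 RPM (change 2.52 ± 0.91, adjusted p = 0.0128). Without DoxRA replicate 2 the change was 1.14 (adjusted p = 0.391), and without control replicate 1 it was 2.00 (adjusted p = 0.13). The defining stroma markers summed to 13.4 and 19.0 RPM in control and to 20.5 and 170 RPM with DoxRA. All 28 stroma markers summed to 757 to 909 RPM in control and to 426 to 966 RPM with DoxRA. The part of stroma cells was not tested. At day 7 Col3a1 was lower with DoxRA, at 9.34 and 8.27 RPM beside 87.0 and 41.6 RPM in control (change -2.64 ± 0.91, adjusted p = 0.0106). Marker sums were then 20.4 and 30.6 RPM with DoxRA and 35.1 to 82.3 RPM in control. The extraction protocol of that day differed between control and Dox, and in part between control and DoxRA. Dox alone at day 7 also called Col3a1, at 7.99 to 10.4 RPM (change -2.60 ± 0.91, adjusted p = 0.0177; 1 of 5, background 25.3%), with sums of 7.64 to 30.0 RPM.

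In OESko_A11, DoxRA called 5 of 10 tested collagens, all higher, against a background of 20%. Besides Col20a1 and Col2a1 these were Col6a2 (2.15 and 2.20, then 28.1 and 24.2 RPM), Col5a2 (4.74 and 7.14, then 28.1 and 36.3 RPM) and Col1a2 (20.7 and 34.6, then 115 and 150 RPM). With 2 libraries in each group, the groups do not overlap for any of these 3, which were picked by their call. Col6a2 and Col5a2 had 10 RPM only with DoxRA, so they were tested only where they were high. The defining stroma markers summed to 13.3 and 28.5 RPM in control and to 54.3 and 141 RPM with DoxRA, and Lum was at 0 in all 4 libraries. All 28 stroma markers, in contrast, summed to 1024 to 1043 RPM in control and to 812 to 1062 RPM with DoxRA. Of the 28 stroma markers 12 were tested and 1 was called (Igfbp7, higher). With the stroma level as a covariate, Col1a2 (1.31, adjusted p = 0.0601), Col5a2 (1.41, adjusted p = 0.0836) and Col2a1 (1.11, adjusted p = 0.0549) were not called, and with TMM factors 1 collagen was called. Without any 1 of the 4 libraries, 0 to 2 were called.

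The BMS and SerumMinusWIN media gave no collagen call at day 9. None of 6 tested collagens passed with BMS (background 2.46%) or with SerumMinusWIN (background 0.022%) against control, nor any of 8 with BMSDox against BMS (background 21.2%). In BMSDox Col18a1 was 146 and 234 RPM beside 253 and 293 RPM with BMS.

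**Figure D3:**
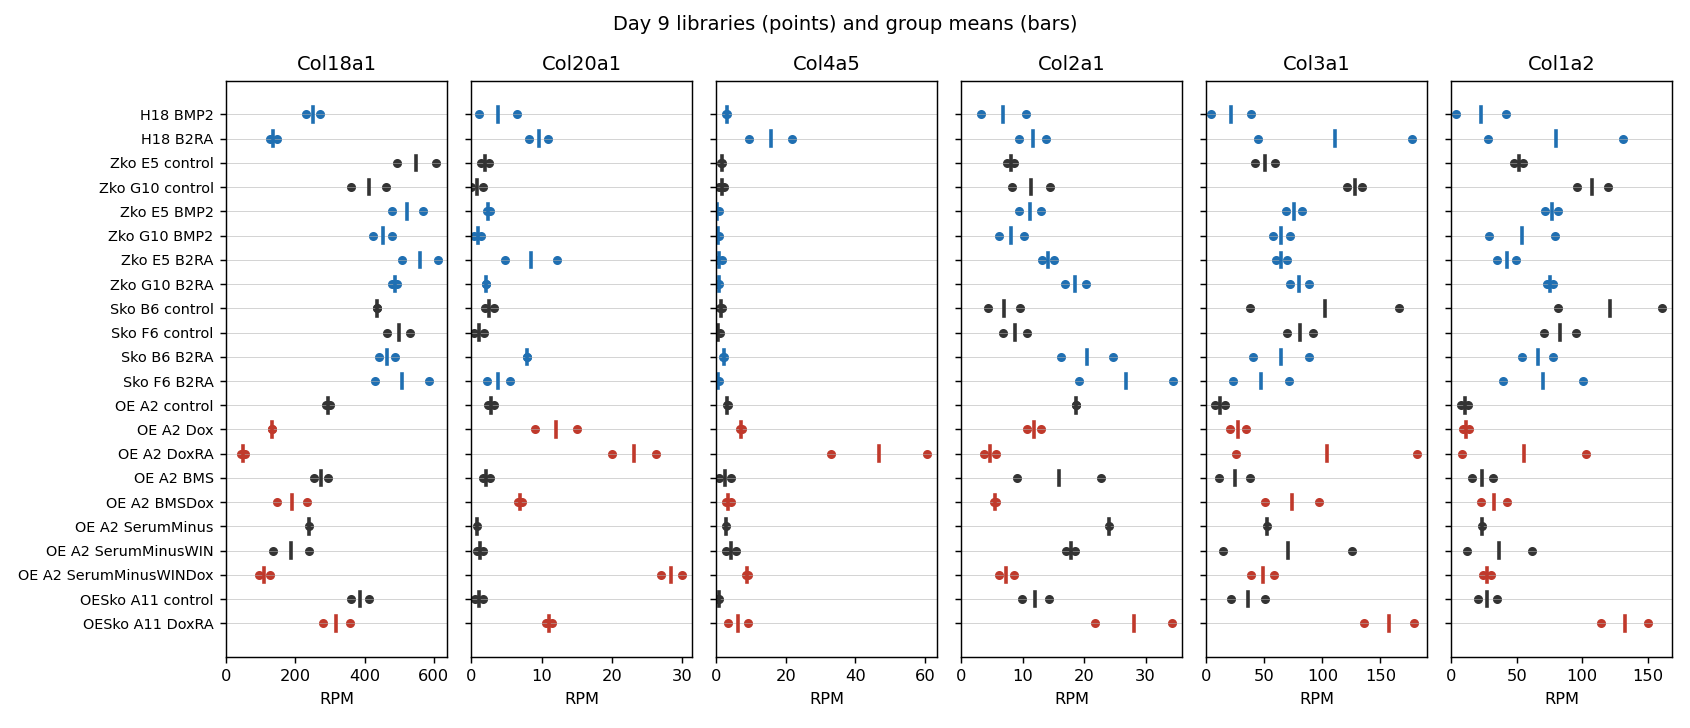
Each point is 1 day 9 library and each vertical bar a group mean, in RPM on linear axes that start at 0. Red groups had Dox, blue groups had BMP2 or B2RA, and black groups had neither. Col18a1 is lowest in OE A2 DoxRA (54.0 and 42.2 RPM) and high in the knockout clones, Col4a5 is highest in OE A2 DoxRA, and the libraries of Col3a1 and Col1a2 lie far apart within several groups.

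BMP2 and B2RA were tested in the knockout clones and H18. In the Zglp1 knockout clones BMP2 called 1 of 12 tested collagens, against a background of 1.46%: Col5a3, a chain of minor type V molecules, with 1.44 to 5.40 RPM in 4 control libraries and 12.2 to 19.8 RPM in 4 BMP2 libraries (change 2.03 ± 0.39, adjusted p = 0.000257). No control library had 10 RPM, so Col5a3 was tested only through the BMP2 libraries, where it was high. The groups do not overlap, and the defining stroma markers ran from 22.0 to 64.8 RPM in control and from 21.5 to 50.4 RPM with BMP2.

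B2RA called 1 of 12 in the Zglp1 knockout clones (background 11%), which was Col13a1, a transmembrane collagen of cell junctions. It was 0.926 to 2.12 RPM in control medium and 5.01, 22.3, 9.06 and 10.4 RPM with B2RA (change 2.25 ± 0.46, adjusted p = 6.24e-05). Leaving out replicate 2 of either clone left 1 library at 10 RPM and no test. In the Stra8 knockout clones B2RA called 2 of 13 (background 20.8%). Col2a1 went from 4.37 to 10.7 RPM in control medium to 16.2 to 34.4 RPM (change 1.49 ± 0.32, adjusted p = 6.52e-05), with no overlap. Col5a3 went from 2.39 to 6.05 RPM to 5.89 to 18.4 RPM (change 1.21 ± 0.39, adjusted p = 0.00767), with overlap. In these B2RA comparisons no control library had 10 RPM of Col13a1 or Col5a3, so both were tested only where they were high.

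In H18, B2RA against BMP2 called 3 of 10 tested collagens (background 16%): Col3a1 (2.67 ± 0.91), Col1a1 (2.44 ± 0.79) and Col4a1 (2.40 ± 0.77). Each rested on single libraries. In B2RA replicate 1 Col4a1 was 132, Col3a1 177 and Col1a1 123 RPM, and in replicate 2 they were 23.3, 44.6 and 29.5 RPM, with BMP2 libraries between 4.06 and 38.6 RPM. Without replicate 1 no call of the 3 remained (for Col4a1, Col3a1 and Col1a1 adjusted p = 0.417, 0.313 and 0.325), nor without BMP2 replicate 1 (adjusted p = 0.301, 0.44 and 0.0986), and edgeR called none. With the stroma level as a covariate the 3 calls were kept. With the endoderm level, a covariate added after seeing the data, they were not. Stroma and endoderm markers also differed between these libraries. The defining stroma markers summed to 99.3 and 37.0 RPM with B2RA and to 12.9 and 118 RPM with BMP2. In B2RA, Gata4 was 105 and 26.9 RPM in replicates 1 and 2, Gata6 73.9 and 21.6 RPM, and Sox17 15.6 and 0.561 RPM. Their part was not tested.

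Compared with H18 in B2RA at day 9, the knockout clones had more Col18a1. H18 had 126 and 146 RPM, the Zglp1 knockout clones 480 to 611 RPM and the Stra8 knockout clones 430 to 585 RPM. The changes were 1.93 ± 0.20 (adjusted p = 1.06e-14) and 1.82 ± 0.20 (adjusted p = 9.80e-13), and for Col18a1 no libraries overlap. Both comparisons share the 2 H18 libraries. The Zglp1 comparison called 4 of 15 collagens (background 36.4%): Col18a1, Col9a2 (1.70 ± 0.38), Col5a3 (1.40 ± 0.48) and Col20a1 (-1.02 ± 0.46). The Stra8 comparison called 2 of 14 (background 24.8%), Col18a1 and Col5a3 (2.00 ± 0.48). Without H18 replicate 1, Col9a2 had a change of 0.84 (adjusted p = 0.141) and Col5a3 of 1.22 (adjusted p = 0.105) against the Zglp1 clones. Without Zko_E5 replicate 1 Col5a3 had 0.79 (adjusted p = 0.171), and its libraries overlap those of H18. Col5a3 had a mean of 19.6 RPM in Zko_G10 and of 2.24 RPM in Zko_E5, where 1 library was at 0. The Col20a1 call was lost with pseudocounts of 0.5 or 5, no filter, TMM factors, only the compared groups, edgeR and without each of the 6 libraries. Within the knockout clones the changes of Col18a1 with B2RA did not pass (0.14 and 0.05).

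**Figure D4:**
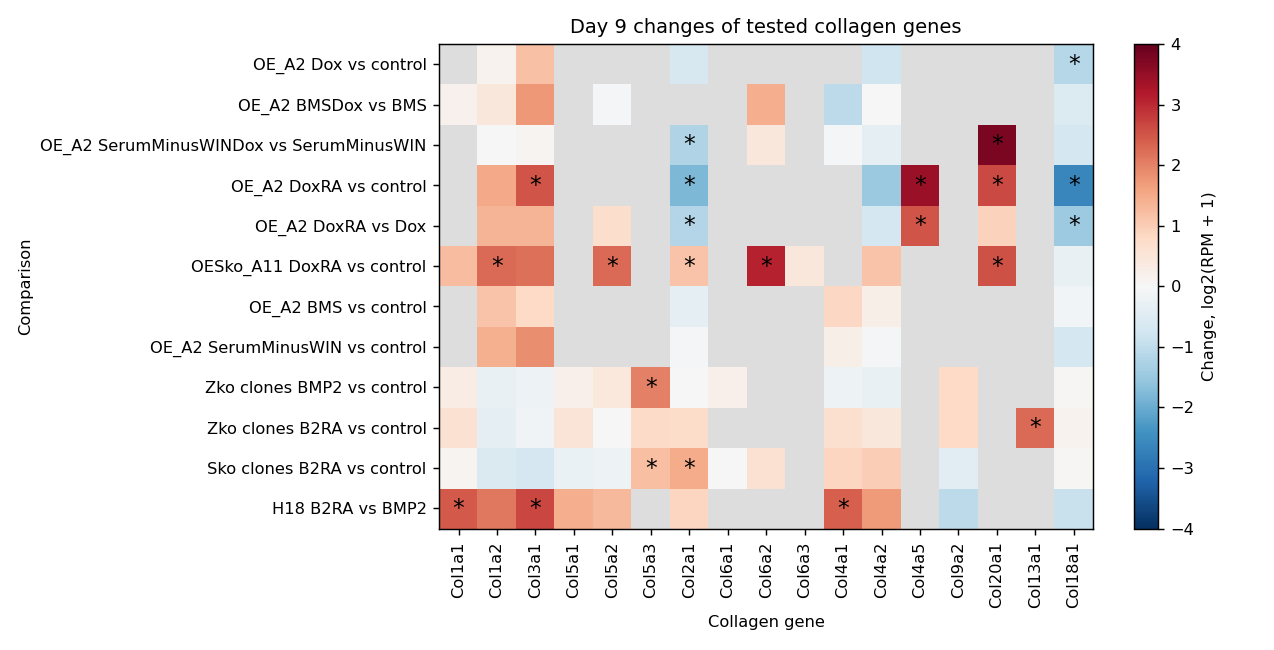
Rows are day 9 comparisons and columns are collagen genes, and colour is the change on the log2(RPM + 1) scale from -4 (blue) to 4 (red). Grey cells were not tested, and an asterisk marks a call. Col18a1 is blue in every OE_A2 comparison with Dox, Col20a1 and Col4a5 are darkest red in OE_A2, and of the 5 asterisks of Col1a1, Col1a2, Col3a1 and Col5a2, 4 are in OESko_A11 and H18.

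Col9a2, a fibril-associated chain of type IX, was treatment-dependent early in culture. B2RA raised it at day 5 in both pairs of knockout clones: the Zglp1 knockouts had 12.8 to 18.3 RPM in control medium and 42.3 to 56.6 RPM with B2RA (change 1.59 ± 0.31, adjusted p = 0.000315; 1 of 7 collagens called, background 1.01%). The Stra8 knockouts had 22.2 to 25.8 RPM and 46.9 to 61.4 RPM (change 1.20 ± 0.31, adjusted p = 0.0331; 1 of 7, background 0.488%). No libraries overlap in either. With Dox in OE_A2 it was lower at day 5 (2.17 and 0.674 RPM beside 10.9 and 11.2 RPM, change -2.39 ± 0.43, adjusted p = 2.70e-05; 2 of 6, background 11.8%) and at day 4 (5.26 and 4.40 RPM beside 12.3 and 13.5 RPM, change -1.25 ± 0.43, adjusted p = 0.0347; 1 of 5, background 9.61%), where the extraction protocol differed too. In H18 at day 4 it was 49.6 RPM in the 1 B2RA library and 11.7 to 16.2 RPM with BMP2 (change 1.77 ± 0.53, adjusted p = 0.0364; 1 of 2, background 3.46%). That library is assumed to vary like the other groups, and the other labelled B2RA sample of day 4 was not analysed here. By day 9 the response to B2RA was not called within either pair of clones, and the difference between the pairs (1.23 ± 0.43, adjusted p = 0.0466; 1 of 14, background 8.04%) was lost in edgeR and with pseudocounts of 0.5 or 5.

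Col4a2 rose early in a pair of further media of OE_A2. At day 5 it was 39.5 and 29.5 RPM with BMSDox, beside 10.9 and 3.09 RPM with BMS (change 2.33 ± 0.73, adjusted p = 0.0167; 1 of 7 collagens called, background 11.6%). In SerumMinusWINDox it was 38.5 and 31.7 RPM, beside 10.2 and 1.93 RPM (change 2.65 ± 0.73, adjusted p = 0.0127; 1 of 4, background 5.59%). All these libraries have the same extraction protocol. At day 9 Col4a2 was not called in either medium. At day 7 BMSDox called it as well, at 30.8 to 48.1 RPM beside 7.82 to 11.5 RPM with BMS (change 1.91 ± 0.73, adjusted p = 0.0414; 1 of 6, background 16.7%). DoxRA against control in OE_A2 at day 7 also called Col4a2 and Col20a1 higher (5 of 6, background 39.3%), where the extraction protocol differed in part.

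Type IV collagen varied by clone. In control medium of 6 lines, day 9 against day 4 called 6 collagens higher and 1 lower of 13 tested, against a background of 10.6%. The changes are means over the 6 lines, and their p-values measure the spread between replicate libraries within lines, not that between lines. Col4a2 had the largest change (2.99 ± 0.30, adjusted p = 6.62e-15), then Col4a1 (2.72 ± 0.32, adjusted p = 4.00e-12), Col1a2 (1.99 ± 0.35), Col2a1 (1.71 ± 0.18), Col1a1 (1.50 ± 0.32) and Col5a1 (1.28 ± 0.24), and Col9a2 fell by 1.21 ± 0.18. Leaving out 1 library gave 7 to 8 calls. With the stroma level as a covariate, Col1a1 (0.17), Col1a2 (0.23) and Col5a1 (0.58) were not called, and Col4a1, Col4a2, Col2a1 and Col9a2 were.

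The rise of type IV was uneven between clones. Col4a1 in Zko_E5 was 9.64 and 8.17 RPM at day 4, 35.9 and 26.6 RPM at day 5, 73.0 and 93.4 at day 7 and 483 and 286 RPM at day 9. Sko_B6 reached 122 and 142 RPM at day 9. Their sister clones with the same genotype did not: Zko_G10 had 9.96 and 32.4 RPM and Sko_F6 had 12.5 and 11.7 RPM. Col4a2 was 450 and 338 RPM in Zko_E5 and 146 and 171 RPM in Sko_B6 at day 9, beside 16.2 and 23.1 RPM in Zko_G10 and 16.7 and 17.4 RPM in Sko_F6. The F test between the 6 lines in control medium at day 9 called 8 of 10 tested collagens, against a background of 15.8%, and among them Col4a1 (adjusted p = 1.37e-08) and Col4a2 (adjusted p = 1.28e-07). Col9a2, Col1a1, Col5a1, Col1a2, Col18a1 and Col3a1 were the others. Without OE_A2 control replicate 1 the test called 3, and without any other library 6 to 8.

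**Figure D5:**
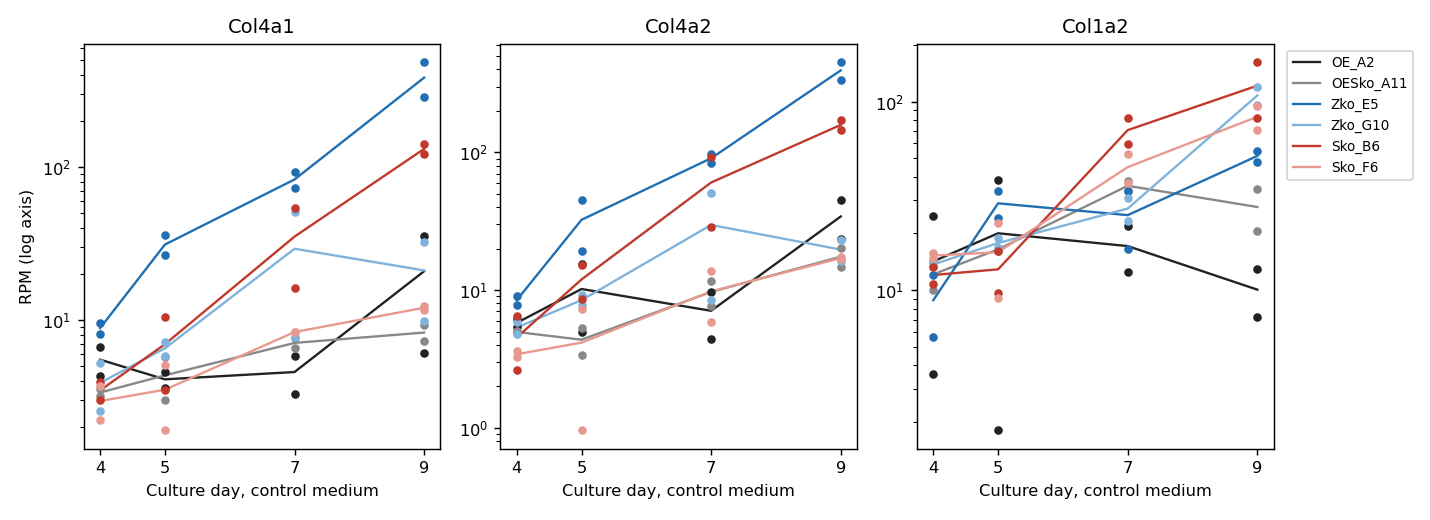
Points are libraries in control medium and lines join the means of 2 replicates, with RPM on log axes against culture day. Zko_E5 and Sko_B6 rise above the other 4 lines in Col4a1 (483 and 286, 122 and 142 RPM at day 9) and Col4a2, whereas Col1a2 orders the lines differently, with Sko_B6 and Zko_G10 highest at day 9.

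Markers of primitive and parietal endoderm stood beside type IV. In control medium at day 9, laminin alpha 1 (Lama1), which parietal endoderm makes, was 247 and 161 RPM in Zko_E5 and 121 and 91.1 RPM in Sko_B6. It was 2.91 to 19.4 RPM in Zko_G10, Sko_F6 and OESko_A11, and 51.6 and 14.4 RPM in OE_A2. Gata4, an endoderm transcription factor, was 29.3 and 14.4 RPM in Zko_E5 and 10.7 and 9.54 RPM in Sko_B6, and Sox17, another, was 13 and 5.26 RPM and 4.57 and 4.77 RPM. Sox17 was at 0 in all 6 control libraries of Zko_G10, Sko_F6 and OESko_A11. All 15 markers summed to 1047 and 874 RPM in Zko_E5, 614 and 488 RPM in Sko_B6 and 192 to 344 RPM in the other 4 lines, and most of each sum was Sparc. The genes named here were chosen after their values were seen.

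Within replicate pairs type IV also went with endoderm markers. Col4a1 was 4-fold apart in 8 of 41 pairs and Col4a2 in 7 of 61. The mean log2 level of the 15 endoderm markers was higher in the same library in all 8 and all 7, and the stroma level was so in 6 and 5. Col4a2 went with Col4a1 in 7 of the 8, and Col3a1 went with Col4a1 in 4 of the 8. An example was Sko_B6 B2RA at day 9, where Col4a1 was 85.2 and 479 RPM, Lama1 76.5 and 307 RPM, Sox17 4.32 and 25.8 RPM, and the defining stroma sum 42.0 and 25.8 RPM. With the endoderm level as a covariate, an alternative added after seeing the data, the day 9 against day 4 change was 2.09 for Col4a2 and 1.68 for Col4a1, both still called, and the H18 change of Col4a1 was -0.33 (adjusted p = 0.736). Whether these reads came from other cells or from PGCLCs was not tested.

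Genes that make and hold collagen were counted from lists. The shares of all genes called, here and below, count rises and falls together. In control medium from day 4 to day 9, 7 of 18 tested collagen processing genes rose and none fell (median 0.82, all genes 0.07; 10.6% of all genes were called), among them Serpinh1, the collagen chaperone, and Plod2, a lysyl hydroxylase. Of 9 endoderm markers 3 rose (Lrp2, Gata4, Lama1), and 9 of 18 stroma markers rose, whereas the 1 defining stroma marker tested did not pass (change -0.63). In OE_A2 with DoxRA, 5 of 18 processing genes fell (Serpinh1, Crtap, Adamts14, P4ha2, Pxdn) and 1 rose (P4ha3), with a median of -0.52, where 48.2% of all genes were called. Of 8 stroma markers 3 fell (Myl9, Cyr61 and Cald1) and none rose, beside the called rise of Col3a1. In OESko_A11 with DoxRA, 4 of 18 processing genes rose and 1 fell, where 20% of all genes were called.

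Among endoderm markers 7 of 8 tested rose with B2RA in the Stra8 clones (median 1.69, all genes 0.23; 20.8% of all genes called). In the Zglp1 clones 4 of 10 rose (median 0.96, all genes 0.11; 11% called), and with B2RA against BMP2 in H18 4 of 5 rose (16% called). Col4a1 and Col4a2 were not called in either pair of clones, and the Zglp1 clones differed in sign: Col4a1 had -1.06 in Zko_E5 and 2.35 in Zko_G10, and Col4a2 had -1.37 and 2.27, differences that were not tested. Of processing genes 5 of 20 rose in the Stra8 clones and 2 of 19 in the Zglp1 clones, beside 20.8% and 11% of all genes called in either direction. Of 3 tested collagen receptors 1 rose in each, which was Mrc2.

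Some members with low medians are given by their highest values. Col9a1, another type IX chain, had a median of 3.06 RPM and was highest at 13.3 RPM in H18 with RA at day 3.5. Col22a1, a collagen of tissue junctions, had a median of 1.09 RPM and a highest value of 12.1 RPM in OESko_A11 DoxRA at day 9. Col9a3 reached 14.8 RPM in OE_A2 SerumMinusWINDox at day 9, and Col6a1 reached 33.9 RPM in H18 B2RA day 5 replicate 2.

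In germ cells from embryos, with 1 library per stage and no replicate check, Col18a1 was 243 RPM at E9.5, 67.3 RPM at E14.5 and 36.1 RPM at E15.5. Col4a2 was 1.91, 42.1 and 44.7 RPM, and Col4a1 5.74, 13.6 and 13.6 RPM. Col20a1 was 0.239, 7.88 and 6.43 RPM, Col9a2 9.33, 1.52 and 1.07 RPM, and Col2a1 13.4, 8.18 and 7.15 RPM. Col3a1 was 17.7, 6.06 and 38.6 RPM. The stages differ in reporter, and no test was made.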

How the data were processed

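RNA 3' ends were amplified from 1 ng of RNA and sequenced, per the labels. The submitters' processing notes name cutadapt 1.9.1, TopHat2 2.1.0, Bowtie 1.1.2, SAMtools 1.3, HTSeq 0.9.1 and the build mm10. The authors deposited 1 table of RPM, reads scaled to each library's total of endogenous reads, and 1 column of values that matched no labelled sample was not used. A part of the deposited columns was recorded as signal, since transgene reads lift their totals, and these hold the same unit. Lines shifted by an empty cell (3) were realigned. Whole reads were recovered from the values (100% within 0.05 of a whole number).

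Values were analysed as log2(RPM + 1) with limma 3.58.1, with 1 mean per group of line, medium and day, over 191 PGCLC libraries. The p-values thus measure the spread between replicate libraries within groups, not that between lines or clones. A gene was tested where at least 2 of the compared libraries reached 10 RPM. A call needed a change of 1 or more and a p under 0.05 after Benjamini-Hochberg adjustment over all genes tested. Every adjusted p is from limma unless edgeR 4.0.16 (quasi-likelihood test on the recovered reads) is named. The scripts were tested on simulated data. Alternatives were other pseudocounts, no filter, TMM factors, a replicate block, the stroma level as a covariate, only the compared groups, edgeR and leaving out libraries. The endoderm covariate was added after seeing the data. Collagens with a group mean of 10 RPM or more are described by value, and of each marker list at most the largest called changes are named. The collagen genes and the marker lists were chosen with earlier results of these data known. The result of 1 marker list, basement membrane partners, is not reported here.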

Additional observations from a re-analysis of the deposited data

Results flagged for a closer look

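In 4 collagen results the change under a treatment differed between clones or genotypes by a test of the difference itself, in limma with Benjamini-Hochberg adjustment. For DoxRA against control at day 9, OESko_A11 minus OE_A2 gave 2.95 ± 0.64 for Col2a1 (adjusted p = 0.000242), 2.31 ± 0.32 for Col18a1 (adjusted p = 2.59e-08) and 2.38 ± 0.89 for Col6a3 (adjusted p = 0.0405). For B2RA against control at day 9, the Zglp1 minus the Stra8 knockout clones gave 1.23 ± 0.43 for Col9a2 (adjusted p = 0.0466). The differences of Col2a1 and Col18a1 were called under every alternative run, and those of Col6a3 and Col9a2 were not.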

How the results depend on the processing

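The counts of collagens called depended on the setting, and the cause was not tested. Without the filter the counts were 5 (Dox), 17 (DoxRA), 7 (DoxRA against Dox), 9 (BMSDox), 4 (SerumMinusWINDox), 10 (OESko_A11), 2 (Zglp1 knockout BMP2), 5 and 9 (B2RA in Zglp1 and Stra8 knockouts), 8 (H18), 8 and 8 (knockouts against H18), 12 (day 9 against day 4), 8 (difference in DoxRA) and 25 (treatment F test). The stroma covariate gave 2 (Dox), 3 (BMSDox) and 2 (OESko_A11). The endoderm covariate, chosen after seeing the data, gave 0 for H18 and 0 for the difference in B2RA, and turned Col4a1 in H18 to -0.33. Fitting only the compared groups gave 2 (Dox), 1 (BMSDox), 1 (SerumMinusWINDox), 8 (OESko_A11), 0 (H18), 1 (Zglp1 knockouts against H18) and 0 (difference in B2RA). edgeR gave 2 (Dox), 1 (SerumMinusWINDox), 0 (H18), 1 (Zglp1 knockouts against H18) and 0 (difference in B2RA). A pseudocount of 0.5 gave 1 (SerumMinusWINDox), 2 (OESko_A11) and 0 (difference in B2RA). A pseudocount of 5 gave 1 (SerumMinusWINDox), 1 (Stra8 knockout B2RA), 6 (H18), 2 (Zglp1 knockouts against H18), 5 (difference in DoxRA) and 0 (difference in B2RA). TMM factors gave 1 (OESko_A11), 0 (Zglp1 knockout B2RA), 1 (Stra8 knockout B2RA) and 1 (Stra8 knockouts against H18). The replicate block gave 5 for the difference in DoxRA and kept all 40 named calls. Leaving out 1 library gave 2 to 5 (DoxRA), 1 to 2 (DoxRA against Dox), 0 to 1 (SerumMinusWIN), 0 to 2 (SerumMinusWINDox), 0 to 2 (OESko_A11), 0 to 2 and 1 to 3 (B2RA in Zglp1 and Stra8 knockouts), 0 to 5 (H18), 2 to 3 and 2 to 4 (Zglp1 and Stra8 knockouts against H18), 0 to 1 (difference in B2RA) and 3 to 8 (lines). Of 40 named calls TMM factors kept 31, lost 3 and left 6 untested. edgeR kept 29 and the stroma covariate 33. When 1 library was left out, 275 of 352 calls were kept, 45 were lost and 32 were untested, since fewer than 2 libraries then had 10 RPM. Correlations of the deviations of same-numbered libraries ran from -0.17 to 0.33 and were over 0.1 in some comparisons (0.17 to 0.33 with BMS and SerumMinusWIN media, 0.15 to 0.20 in the Stra8 knockouts) and under it in others. Replicate numbers were not taken as pairs.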
